A study of Mus musculus with 12 samples.

Results

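Cholesterol and fatty acid synthesis genes were followed through 3 drug comparisons in blood stem and progenitor cells carrying the JAK2V617F mutation. The set was chosen by gene symbol: 34 protein-coding genes of 55487 in the deposited tables, of which 18 encode sterol synthesis enzymes, 6 encode sterol regulators or the sterol carrier Stard4, 8 encode fatty acid synthesis and desaturation enzymes, and 2 encode sterol exporters. All 34 had a result in each comparison. The cells were LSK cells, the marrow fraction that lacks lineage markers and carries Sca-1 and Kit, which is enriched for stem and early progenitor cells. They were lineage-depleted and sorted from C57BL/6 marrow labelled BMT, read here as bone marrow transplant. Every group, vehicle included, carried homozygous JAK2V617F, an activating change in a cytokine-receptor kinase found in myelofibrosis, so no wild-type group enters these comparisons. The 4 groups, of 3 polyA RNA libraries each, received vehicle, palbociclib (which blocks the cell cycle kinases CDK4 and CDK6), ruxolitinib (a JAK1 and JAK2 inhibitor), or both drugs. Dose, treatment time and age are not stated in the labels, which also do not tie libraries to individual mice. The p-values therefore measure only a spread between libraries, which may be technical. That spread was estimated in the authors' fit of 24 libraries, of which 12 are not analysed here.

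Cells make cholesterol from acetyl-CoA through the mevalonate pathway, whose products are condensed to squalene and then folded and trimmed into cholesterol. When sterols in the endoplasmic reticulum are low, SCAP escorts the transcription factor SREBP2, encoded by Srebf2, to the Golgi, where it is cut and released to switch on sterol genes. The INSIG proteins hold SCAP back when sterols are plentiful. SREBP1, encoded by Srebf1, favours the fatty acid genes, whose enzymes build palmitate from citrate-derived acetyl-CoA, and the desaturases then add double bonds. Excess sterol leaves the cell through ABCA1 and ABCG1, which are targets of the sterol-sensing LXR receptors. SREBPs bind sterol regulatory elements together with NF-Y, a factor that binds the letters CCAAT.

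Promoter sequence from RefSeq (GRCm38.p6) was matched by symbol to 26 of the 34 genes, in windows from 250 bases before to 50 bases after a start site. The letters CCAAT, searched on both strands, were present in a window of 14 of the 15 sterol enzyme genes with one (93.3%), in 4 of 5 regulators and in 2 of 5 fatty acid enzyme genes, against 41.1% of 27025 genes with a window. The sterol regulatory element, searched as TCACNCCAC on both strands, was found in 1 of the 26 genes, Hmgcs1, against 1.44% of all genes. An E-box, CACGTG, which is the same on both strands, was in 6 of the 26 (23.1%), against 8.09% of all genes. These motifs do not overlap one another in the printed windows, and a match describes the letters only. The genes with CCAAT had a median log2 fold change with palbociclib of 0.40 (20 genes) and those without it 0.10 (6 genes); with the combination the medians were -0.22 and -0.18. Of the 20 genes with CCAAT 14 are sterol enzymes, whereas Acat2 is the only sterol enzyme among the 6 without it. The split therefore largely restates the branch, and its medians are given as a description, without a test.

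The 250 bases upstream of the start are printed for 5 genes that passed a test described below, 3 from the sterol branch and 2 from the fatty acid branch, so that the branches can be compared. They run 5′ to 3′ on the gene's own strand, and capitals mark CCAAT (or ATTGG on the opposite strand) and the sterol regulatory element.
Hmgcs1 (chr13:119690101-119690350, forward strand): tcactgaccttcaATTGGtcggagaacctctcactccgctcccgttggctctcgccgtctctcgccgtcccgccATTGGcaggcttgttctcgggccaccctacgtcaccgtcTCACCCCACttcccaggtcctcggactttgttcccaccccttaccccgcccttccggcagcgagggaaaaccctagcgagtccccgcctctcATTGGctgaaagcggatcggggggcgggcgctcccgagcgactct
Mvd (chr8:122443423-122443672, reverse strand): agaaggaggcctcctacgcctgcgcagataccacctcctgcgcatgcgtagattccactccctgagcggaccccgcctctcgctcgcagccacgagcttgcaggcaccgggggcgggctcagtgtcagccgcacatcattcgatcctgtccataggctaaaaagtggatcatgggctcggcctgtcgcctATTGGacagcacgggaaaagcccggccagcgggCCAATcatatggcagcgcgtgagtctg
Sc5d (chr9:42264301-42264550, reverse strand): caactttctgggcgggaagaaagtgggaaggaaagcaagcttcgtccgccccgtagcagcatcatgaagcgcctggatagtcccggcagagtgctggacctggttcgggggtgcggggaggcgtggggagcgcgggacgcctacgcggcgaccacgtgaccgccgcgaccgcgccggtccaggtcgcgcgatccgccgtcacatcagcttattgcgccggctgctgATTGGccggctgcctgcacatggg
Fasn (chr11:120824548-120824797, reverse strand): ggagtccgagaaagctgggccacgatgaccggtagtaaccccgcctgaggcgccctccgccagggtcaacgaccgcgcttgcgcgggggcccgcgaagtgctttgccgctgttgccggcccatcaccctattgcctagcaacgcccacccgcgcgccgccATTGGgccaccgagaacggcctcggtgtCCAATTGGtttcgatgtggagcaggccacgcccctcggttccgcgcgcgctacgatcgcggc
Acly (chr11:100528001-100528250, reverse strand): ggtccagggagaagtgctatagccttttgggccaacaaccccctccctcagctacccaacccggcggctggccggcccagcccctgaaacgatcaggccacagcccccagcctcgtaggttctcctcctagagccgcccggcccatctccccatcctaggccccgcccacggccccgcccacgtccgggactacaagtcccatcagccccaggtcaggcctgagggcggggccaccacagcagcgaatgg
Hmgcs1 held CCAAT beginning 237, 176 and 45 bases before the start, with its sterol regulatory element beginning 137 bases before it. The Mvd matches began 60 and 27 bases before the start, and the single Sc5d match began 24 bases before it. The RefSeq start used for Sc5d lies upstream of the gene's 5′ end in GENCODE (42264256). The bases after that start were not found in a GENCODE transcript of Sc5d, so its distance is less certain. Fasn had matches at 90, 62 and 59 bases, of which the last pair overlap as the 8 letters CCAATTGG, read once on each strand. Acly had none in these bases, and its match lay after the start. Acaca also passed a test but is not printed. Its window held no CCAAT and no sterol regulatory element. The upstream bases of that window (84195188 to 84195437) lie inside the annotated gene (84129672 to 84401651), so its place as a promoter is less certain. Acaca is counted among the fatty acid enzyme genes with a window.

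The deposited tables hold comparisons between groups, and values per library were not used here; each level below is a modelled group level in normalised reads, with its 95% interval. The read depth implied by the authors' size factors ran from 18.2 to 44.7 M reads per library. All 8 LSK markers were measured, with base means of at least 571 normalised reads over the authors' whole fit. Of the 8, 3 rose with palbociclib, 1 with ruxolitinib and 5 with the combination in the authors' deposited table, and their summed modelled level was 47960 normalised reads under vehicle, then 53560, 52860 and 67040. The groups also differed in other ways. The summed level of 8 plasma cell markers stood at 4657 normalised reads under vehicle, at 14890 under palbociclib, at 3127 under ruxolitinib and at 264900 under both drugs. The neutrophil marker sum was 367, 6991, 93.7 and 1438 in the same order, and the monocyte and macrophage sum was 13470, 3379, 4851 and 2791. The sum of 10 mitosis genes was 81040, 39520, 71600 and 38710, so it was lower in both arms with palbociclib. All 4 Y-linked genes examined fell with palbociclib and with the combination in the authors' deposited table, and the sum of the 3 with a modelled level was 921, 9.14, 2297 and 4.69 normalised reads. The part of these shifts in the lipid gene results was not tested. In bulk samples, fewer cells of a type and less RNA per cell cannot be told apart.

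In vehicle cells the most abundant members per kilobase of exon were the desaturase gene Scd2 (2722 normalised reads per kilobase), Acly (1895), Srebf2 (959), Fads2 (927) and Fasn (822). The lowest were Hsd17b7 (48.8), Tm7sf2 (37), Fdps (16.1) and Scd1 (14.2). Of the stearoyl-CoA desaturase genes Scd1 and Scd2, Scd2 was thus by far the higher. Among the sterol enzymes Hmgcs1 was highest, at 498 normalised reads per kilobase.

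The palbociclib comparison asked how CDK4/6 inhibition alone altered the LSK transcriptome. The members that passed with palbociclib were 5 sterol enzymes and Stard4, and none of the fatty acid enzymes did. In all, 6 members rose and 0 fell in the authors' deposited table (DESeq2 Wald test, Benjamini-Hochberg adjusted p under 0.05). That is 17.6% of the members higher, beside 4.98% of all 15448 genes tested, and 0% lower beside 3.64%. The sterol enzymes had 17 of 18 values above 0 and a median log2 fold change of 0.53, the regulators and Stard4 a median of 0.23, and the fatty acid enzymes a median of 0.09; the median of all genes with a base mean of at least 50 was -0.002. Summed over the 18 sterol enzymes, the modelled level went from 13290 normalised reads under vehicle to 17810 under palbociclib, while the 8 fatty acid enzymes summed to 45930 and 45760. The 5 enzymes that rose act at a late mevalonate step, on squalene, on lanosterol and its methyl groups, and near the end of the pathway.

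**Figure D1:**
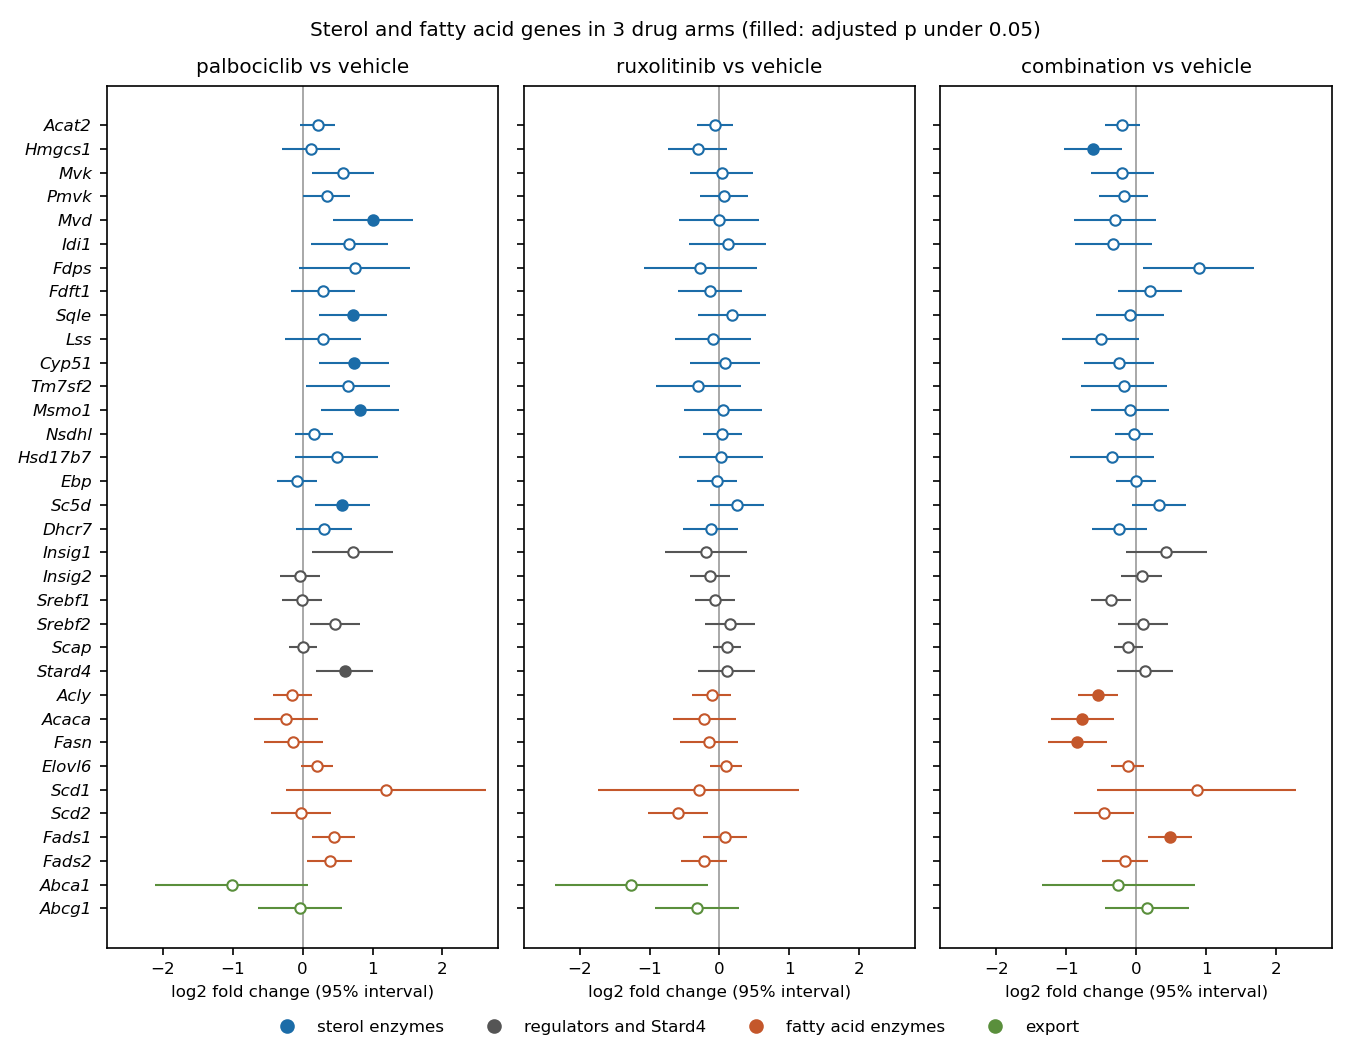
Log2 fold change against vehicle of each of the 34 genes in the 3 drug arms, as deposited, with 95% intervals and colours by role; filled points have an adjusted p under 0.05. The 6 filled points with palbociclib are sterol enzymes and Stard4 to the right of 0, no point is filled with ruxolitinib, and with the combination 3 of the 4 filled points to the left are fatty acid enzymes.

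Mvd encodes mevalonate diphosphate decarboxylase, which makes isopentenyl diphosphate (ENSMUSG00000006517, chromosome 8, 122433601 to 122443422, reverse strand). Its modelled level was 191 (144 to 253) normalised reads under vehicle and 384 (291 to 507) under palbociclib, against 191 (144 to 253) under ruxolitinib and 155 (116 to 207) under both drugs. The palbociclib interval lies above those of the other 3 groups, with a log2 fold change in the authors' deposited table of 1.01 ± 0.29 (SE, adjusted p = 0.0122) by DESeq2, or 2.01-fold.

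Sqle encodes squalene epoxidase, a rate-limiting step after squalene (ENSMUSG00000022351, chromosome 15, 59315077 to 59331192, forward strand). Its level was 1326 (1045 to 1683) normalised reads under vehicle and 2179 (1718 to 2764) under palbociclib, against 1505 (1186 to 1910) under ruxolitinib and 1252 (986 to 1590) under both drugs. Palbociclib stood above vehicle by a deposited log2 fold change of 0.72 ± 0.25 (SE, adjusted p = 0.0466) in the authors' deposited DESeq2 table.

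Cyp51 encodes lanosterol 14-alpha demethylase (ENSMUSG00000001467, chromosome 5, 4081145 to 4104746, reverse strand) and Msmo1 encodes the C4 methyl sterol oxidase that acts after it (ENSMUSG00000031604, chromosome 8, 64718139 to 64733792, reverse strand). Cyp51 stood at 1312 (1026 to 1677) normalised reads under vehicle and 2177 (1703 to 2781) under palbociclib, against 1385 (1083 to 1771) under ruxolitinib and 1108 (866 to 1419) under both drugs. Msmo1 stood at 666 (507 to 875) normalised reads under vehicle and 1176 (896 to 1544) under palbociclib, against 693 (527 to 911) under ruxolitinib and 628 (477 to 826) under both drugs. Both had their highest level with palbociclib. In the authors' deposited DESeq2 table Cyp51 rose by 0.73 ± 0.26 (SE, adjusted p = 0.0496) and Msmo1 by 0.82 ± 0.28 (SE, adjusted p = 0.0467) on the log2 scale.

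Sc5d encodes the sterol C5 desaturase near the end of the pathway (ENSMUSG00000032018, chromosome 9, 42251595 to 42264256, reverse strand), and its level was 596 (493 to 722) normalised reads under vehicle and 885 (732 to 1071) under palbociclib, against 709 (585 to 858) under ruxolitinib and 748 (617 to 907) under both drugs. Its intervals with ruxolitinib and with the combination overlap the palbociclib interval, unlike those of Mvd. The authors' deposited DESeq2 table gives it a palbociclib log2 fold change of 0.57 ± 0.20 (SE, adjusted p = 0.0491). Stard4 encodes a cytosolic sterol carrier (ENSMUSG00000024378, chromosome 18, 33199355 to 33213862, reverse strand), and its level was 3089 (2535 to 3763) normalised reads under vehicle and 4683 (3845 to 5704) under palbociclib, against 3318 (2723 to 4042) under ruxolitinib and 3376 (2770 to 4114) under both drugs. Its palbociclib log2 fold change in the authors' deposited DESeq2 table was 0.60 ± 0.21 (SE, adjusted p = 0.0434).

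Of these 6 calls, 5 sit close to the threshold. With the Benjamini-Hochberg adjustment over every gene that has a deposited p-value, in place of the authors' filtered set, only Mvd passed (adjusted p = 0.0266), and the other 5 had adjusted p-values from 0.094 to 0.107 on the authors' deposited DESeq2 p-values; over all genes that rule called 1.56% higher and 1.03% lower. The mitosis sum stood at 39520 normalised reads with palbociclib against 81040 in vehicle and the neutrophil sum at 6991 against 367; their part in the rise of the sterol genes was not tested. The sum of the 3 Y-linked genes with a modelled level was 9.14 against 921, with 4 of 4 genes lower in the authors' deposited table and a median log2 fold change of -6.62. The labels give no sex of donor or host, so a difference of that kind between the animals of these groups and the effect of palbociclib cannot be told apart.

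The other 13 sterol enzymes did not pass the test with palbociclib, and 12 of them lay above 0. Mvk, the mevalonate kinase gene, had a log2 fold change of 0.58 ± 0.23 (SE, adjusted p = 0.0915), Idi1, which encodes the isopentenyl diphosphate isomerase, 0.67 ± 0.28 (SE, adjusted p = 0.121), and Fdps, the farnesyl diphosphate synthase gene, 0.74 ± 0.40 (SE, adjusted p = 0.263) by DESeq2 in the authors' deposited table. Ebp, an isomerase gene of the late pathway, was the 1 sterol enzyme below 0, at -0.08 ± 0.15 (SE), with a 95% interval of -0.37 to 0.21. Hmgcs1, the HMG-CoA synthase gene at the head of the pathway, had 0.12 ± 0.21 (SE) with an interval of -0.29 to 0.54.

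The 5 regulators did not pass with palbociclib. Srebf2, which encodes SREBP2, stood at 6890 (5791 to 8197) normalised reads under vehicle and 9504 (7989 to 11307) under palbociclib, against 7632 (6415 to 9080) under ruxolitinib and 7361 (6186 to 8759) under both drugs, with a palbociclib log2 fold change of 0.46 ± 0.18 (SE, adjusted p = 0.0861) in the authors' deposited DESeq2 table. Insig1, itself an SREBP target that restrains SCAP, stood at 1284 (964 to 1709) normalised reads under vehicle and 2106 (1582 to 2802) under palbociclib, against 1126 (845 to 1499) under ruxolitinib and 1732 (1301 to 2306) under both drugs, and its value was 0.71 ± 0.30 (SE, adjusted p = 0.115) in the authors' deposited DESeq2 table. Insig2 (-0.04 ± 0.15, interval -0.33 to 0.25), Srebf1 (-0.01 ± 0.15, -0.30 to 0.28) and Scap (0.00 ± 0.10, -0.20 to 0.20) lay close to 0 in log2 fold change (SE).

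**Figure D2:**
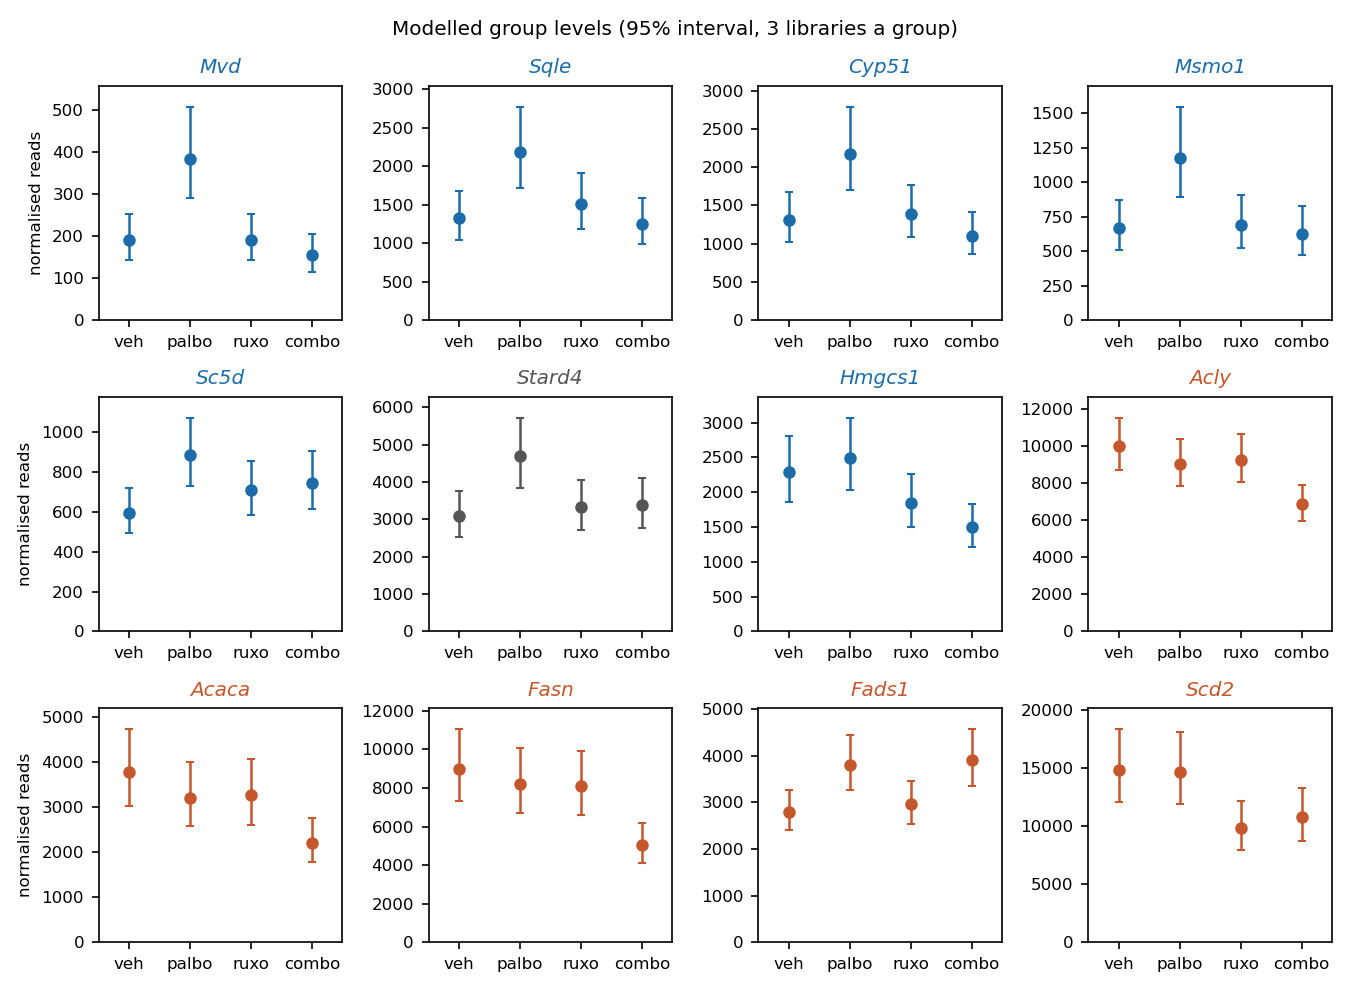
Modelled group level in normalised reads, with 95% intervals, of 12 members in the vehicle, palbociclib, ruxolitinib and combination groups (3 libraries each), each panel on its own linear axis from 0. Mvd, Sqle, Cyp51, Msmo1 and Hmgcs1 are highest with palbociclib and lowest with the combination. Acly, Acaca and Fasn are highest with vehicle and lowest with the combination.

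Ruxolitinib alone, the JAK inhibitor arm, showed no member past the threshold: 0 of 34 rose and 0 fell, beside 0.932% higher and 2.03% lower of all 15448 genes tested, in the authors' deposited DESeq2 table. At an unadjusted p under 0.05 there were 2 of the 34 members, Scd2 and Abca1, beside 1969 of all 15448 genes tested. The sterol enzymes were split evenly around 0 (9 above and 9 below) with a median log2 fold change of 0.01, and the fatty acid enzymes had a median of -0.18 with 6 of 8 below 0. The sterol enzyme sum was 13030 normalised reads, against 13290 in vehicle.

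Scd2, encoding a stearoyl-CoA desaturase that makes monounsaturated fatty acids (ENSMUSG00000025203, chromosome 19, 44293674 to 44306864, forward strand), stood at 14874 (12060 to 18345) normalised reads under vehicle and 14652 (11879 to 18072) under palbociclib, against 9847 (7983 to 12146) under ruxolitinib and 10810 (8764 to 13336) under both drugs. Ruxolitinib and the combination are the lower pair, with log2 fold changes of -0.60 ± 0.22 (SE, adjusted p = 0.128) and -0.46 ± 0.22 (SE, adjusted p = 0.112) in the authors' deposited DESeq2 table, neither of which passed. Abca1, the sterol efflux pump gene (ENSMUSG00000015243, chromosome 4, 53030787 to 53159895, reverse strand), stood at 1255 (734 to 2146) normalised reads under vehicle and 622 (364 to 1066) under palbociclib, against 523 (305 to 896) under ruxolitinib and 1049 (613 to 1795) under both drugs. Its wide intervals overlap in all 4 groups, and its values of -1.01 ± 0.56 (SE, adjusted p = 0.275) with palbociclib, -1.26 ± 0.56 (SE, adjusted p = 0.271) with ruxolitinib and -0.26 ± 0.56 (SE, adjusted p = 0.777) with the combination did not pass in the authors' deposited DESeq2 table. Abcg1, the partner efflux gene, had log2 fold changes of -0.04 ± 0.31, -0.33 ± 0.31 and 0.15 ± 0.31 (SE). Mature macrophages express both exporters strongly, and the monocyte and macrophage sum moved from 13470 normalised reads in vehicle to 3379, 4851 and 2791 with palbociclib, ruxolitinib and the combination. The sum of 8 erythroid markers was 8081, 4469, 2766 and 9891 normalised reads in the same order of groups. With the combination that sum does not follow most of its markers: 3 lay above 0 and 5 below, with a median log2 fold change of -0.81. The part of either sum in the Abca1 values was not tested. The intervals leave room for sizeable changes: for Mvd under ruxolitinib the log2 fold change ran from -0.58 to 0.57, so a p that misses the threshold does not show that the gene was unaffected.

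With both drugs, 3 of the 8 fatty acid enzymes fell and 0 of the 18 sterol enzymes rose. Fasn, Acly, Acaca and Hmgcs1 fell (4 members) and Fads1 rose (1 member) in the authors' deposited DESeq2 table. Those are 11.8% lower and 2.94% higher, beside 10.2% lower and 12.9% higher of all 19228 genes tested, so the members' share of lower genes was near that of all genes and their share of higher genes was below it. The 8 fatty acid enzymes had a median log2 fold change of -0.31, with 1 higher past the test, and the sum of the 8 levels was 33820 normalised reads against 45930 in vehicle. The 18 sterol enzymes had a median of -0.19 with 15 below 0, and their sum was 11630 against 13290.

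Fasn encodes fatty acid synthase, which assembles palmitate (ENSMUSG00000025153, chromosome 11, 120805846 to 120824547, reverse strand). Its level was 8999 (7336 to 11038) normalised reads under vehicle and 8217 (6698 to 10080) under palbociclib, against 8098 (6601 to 9934) under ruxolitinib and 5020 (4091 to 6161) under both drugs. The combination interval lies below those of the other 3 groups, and the authors' deposited DESeq2 table gives a log2 fold change of -0.84 ± 0.21 (SE, adjusted p = 0.00129), or 0.558-fold of vehicle. Acly, the ATP citrate lyase gene that supplies cytosolic acetyl-CoA (ENSMUSG00000020917, chromosome 11, 100476353 to 100528000, reverse strand), stood at 10004 (8709 to 11492) normalised reads under vehicle and 9035 (7864 to 10380) under palbociclib, against 9251 (8053 to 10628) under ruxolitinib and 6849 (5959 to 7870) under both drugs. It too was lowest with the combination, at a log2 fold change of -0.55 ± 0.14 (SE, adjusted p = 0.00216) in the authors' deposited DESeq2 table.

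Acaca encodes acetyl-CoA carboxylase, the committed step of fatty acid synthesis (ENSMUSG00000020532, chromosome 11, 84129672 to 84401651, forward strand). It stood at 3788 (3035 to 4727) normalised reads under vehicle and 3210 (2572 to 4008) under palbociclib, against 3259 (2611 to 4069) under ruxolitinib and 2216 (1774 to 2769) under both drugs, and its combination log2 fold change in the authors' deposited DESeq2 table was -0.77 ± 0.23 (SE, adjusted p = 0.00718). A limit on Acaca is that 30.4% of its 50-base stretches also occur in other annotated genes.

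Hmgcs1, the HMG-CoA synthase gene (ENSMUSG00000093930, chromosome 13, 119690379 to 119708260, forward strand), was the 1 sterol enzyme to fall with the combination. Its level was 2289 (1866 to 2808) normalised reads under vehicle and 2496 (2035 to 3063) under palbociclib, against 1844 (1502 to 2263) under ruxolitinib and 1494 (1216 to 1835) under both drugs, and the authors' deposited DESeq2 table gives -0.62 ± 0.21 (SE, adjusted p = 0.0225). Its ruxolitinib value of -0.31 ± 0.21 (SE, adjusted p = 0.603) in the authors' deposited DESeq2 table did not pass.

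Fads1, the delta-5 desaturase gene of polyunsaturated fatty acid synthesis (ENSMUSG00000010663, chromosome 19, 10182888 to 10196877, forward strand), went the other way. It stood at 2796 (2399 to 3260) normalised reads under vehicle and 3802 (3262 to 4431) under palbociclib, against 2961 (2539 to 3452) under ruxolitinib and 3914 (3357 to 4563) under both drugs, with log2 fold changes of 0.49 ± 0.16 (SE, adjusted p = 0.0156) with the combination and 0.44 ± 0.16 (SE, adjusted p = 0.0582) with palbociclib in the authors' deposited DESeq2 table, of which the first passed. Its neighbour Fads2, the delta-6 desaturase gene, stood at 3055 (2608 to 3578) normalised reads under vehicle and 3992 (3409 to 4675) under palbociclib, against 2622 (2238 to 3072) under ruxolitinib and 2734 (2333 to 3204) under both drugs. Fads2 did not pass against vehicle in any arm. Of the remaining fatty acid enzymes, Elovl6 had a log2 fold change of -0.12 ± 0.12 and Scd1 of 0.86 ± 0.73 (SE), the latter at a low level of 69.7 normalised reads in vehicle.

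Among the regulators with the combination, Srebf1, encoding SREBP1, stood at 3442 (2993 to 3958) normalised reads under vehicle and 3418 (2972 to 3932) under palbociclib, against 3297 (2866 to 3792) under ruxolitinib and 2681 (2329 to 3086) under both drugs, with a log2 fold change of -0.36 ± 0.15 (SE, adjusted p = 0.0564) in the authors' deposited DESeq2 table; it passed when the adjustment was restricted to genes with a base mean of at least 50, where its adjusted p on the deposited DESeq2 p-value was 0.0431 and 16.5% of genes were higher and 16.5% lower. Srebf2 had 0.10 ± 0.18, Insig1 0.43 ± 0.30, Insig2 0.08 ± 0.15, Scap -0.11 ± 0.10 and Stard4 0.13 ± 0.21 on the log2 scale (SE), and none passed. The plasma cell sum was 264900 normalised reads with the combination against 4657 in vehicle, with 8 of 8 markers higher. The mitosis sum was 38710 against 81040, and the Y-linked sum 4.69 against 921. The part of these sums in the combination values was not tested.

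The combination was then set against each single drug, a question of what the added drug changed. The level in vehicle cancels from the difference of deposited log2 fold changes. The libraries of a single drug enter both this difference and that drug's comparison with vehicle, so those results are not independent. With the deposited standard errors combined as if independent, which makes the error too large because both share the vehicle libraries, 0 of 34 members differed from palbociclib, and 13 had an unadjusted p under 0.05. Over all 15448 genes this test called 0.00647% higher and 0.00647% lower, and 898 genes had an unadjusted p under 0.05. With the group variances recovered from the deposited errors, an alternative chosen after seeing the data, 7 members (20.6%) were lower with the combination than with palbociclib and 0 were higher, beside 0.677% lower and 1.49% higher of all 15364 genes. Of the 18 sterol enzymes 16 had a difference below 0, with a median of -0.76, and 5 of the 7 calls are sterol enzymes. An assumed correlation of 0.5 between the arms called 7 members. It allows for the same shared vehicle libraries as the modelled variances do, so it is not a separate check. The share of all genes it called was not computed.

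Mvd had the largest of these differences in log2 fold change, at -1.31 ± 0.29 (SE, adjusted p = 0.00381) with modelled variances and -1.31 ± 0.41 (SE, adjusted p = 0.634) with the deposited errors, each adjusted by Benjamini-Hochberg over all genes from the DESeq2 tables. By modelled variances on the same DESeq2 values, Cyp51 differed by -0.97 ± 0.26 (SE, adjusted p = 0.0197), Idi1 by -0.99 ± 0.28 (SE, adjusted p = 0.0345), Hmgcs1 by -0.74 ± 0.21 (SE, adjusted p = 0.0372) and Mvk by -0.78 ± 0.23 (SE, adjusted p = 0.0426). Of the fatty acid genes, Fasn differed by -0.71 ± 0.21 (SE, adjusted p = 0.0454) and Fads2 by -0.55 ± 0.16 (SE, adjusted p = 0.0461) on that measure from the DESeq2 tables. Idi1 stood at 602 (459 to 789) normalised reads under vehicle and 956 (729.6 to 1253) under palbociclib, against 653 (498 to 856) under ruxolitinib and 480.1 (365 to 631) under both drugs, and Mvk at 330.1 (265 to 411) normalised reads under vehicle and 493 (396 to 613) under palbociclib, against 337 (270.4 to 421) under ruxolitinib and 287 (229.5 to 359.6) under both drugs, so each was highest with palbociclib and lowest with the combination. Neither Idi1 nor Mvk passed against vehicle in any arm. Idi1 shares 25.3% of its 50-base stretches with other annotated genes.

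Sqle and Msmo1, which rose with palbociclib, differed between the combination and palbociclib by -0.80 ± 0.25 (SE, adjusted p = 0.0527) and -0.91 ± 0.28 (SE, adjusted p = 0.0563) with modelled variances from the DESeq2 tables, just outside the threshold. Sc5d, by contrast, had -0.24 with a 95% interval of -0.63 to 0.15. The mitosis sum was 39520 normalised reads with palbociclib and 38710 with the combination, and the Y-linked sum 9.14 and 4.69. The neutrophil sum was 6991 with palbociclib and 1438 with the combination, with all 8 markers below 0 in the difference (median -2.23). The plasma cell sum was 14890 and 264900. The part of these measures in the difference was not tested.

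**Figure D3:**
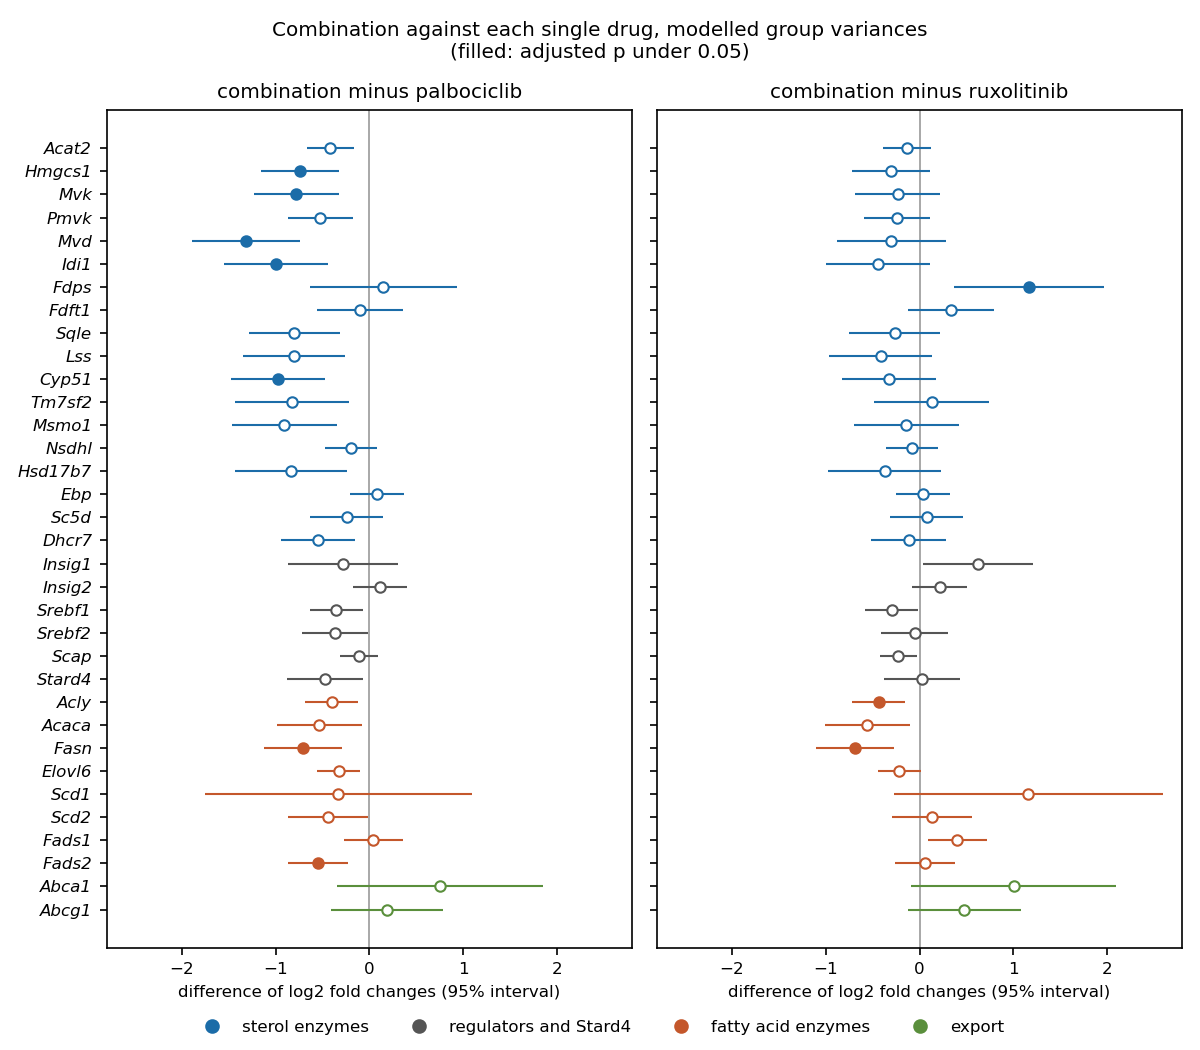
Difference in log2 fold change between the combination and each single drug for the 34 members, with 95% intervals from the modelled group variances; filled points have an adjusted p under 0.05 by that measure. Against palbociclib 28 of 34 points lie left of 0 and 7 are filled, whereas against ruxolitinib 3 are filled, Fdps to the right and Acly and Fasn to the left.

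Against ruxolitinib, 0 of 34 members differed with the deposited errors, beside 1.32% higher and 0.298% lower of all genes. An unadjusted p under 0.05 was reached by 3 members, beside 2645 of all 15448 genes. With modelled variances 1 was higher and 2 were lower, beside 11.7% higher and 8.32% lower of all genes. Fasn differed by -0.69 ± 0.21 (SE, adjusted p = 0.0119), Acly by -0.43 ± 0.14 (SE, adjusted p = 0.0202) and Fdps by 1.17 ± 0.41 (SE, adjusted p = 0.0276) on the log2 scale, from the DESeq2 tables. Fasn was thus lower with the combination than with either drug by this measure. The mitosis sum was 71600 normalised reads with ruxolitinib and 38710 with the combination, and the plasma cell sum 3127 and 264900. The Y-linked sum was 2297 and 4.69. A difference in sex between the animals and the effect of adding palbociclib cannot be told apart. The part of these measures in the differences was not tested. Fdps stood at 67.6, 113, 55.9 and 126 normalised reads in vehicle, palbociclib, ruxolitinib and combination, a low level, and 26.2% of its 50-base stretches also occur in pseudogenes and an overlapping gene. Between the single drugs 0 members differed with the deposited errors, beside 0.104% higher and 0.0388% lower of all genes. An unadjusted p under 0.05 was reached by 4 members, beside 456 of all 15448 genes. With modelled variances 1 member differed, beside 0.846% higher and 0.143% lower of all genes. It was Fads2, higher with palbociclib by 0.61 ± 0.16 (SE, adjusted p = 0.0313) from the DESeq2 tables. The Y-linked sum was 9.14 normalised reads with palbociclib and 2297 with ruxolitinib. In the same order the neutrophil sum was 6991 and 93.7, and the mitosis sum 39520 and 71600. A difference in sex between the animals and the difference between the drugs cannot be told apart. The part of these sums in the Fads2 difference was not tested.

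No member departed from the sum of the single-drug log2 fold changes, by either error, beside 0.0518% higher and 0.0194% lower of all genes with the deposited errors and 1.47% and 0.69% with modelled variances. At an unadjusted p under 0.05 there were 7 members with the deposited errors and 12 with modelled variances. Over all genes those counts were 1481 of 15448 and 2706 of 15364. Mvd had the smallest adjusted p, with a departure of -1.31 ± 0.42 (SE, adjusted p = 0.0625) by modelled variances on the DESeq2 tables. Abca1 had the largest departure upward, at 2.02 ± 0.79 (SE, adjusted p = 0.143) by the same measure on the DESeq2 tables.

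Other genes of the same pathways, from lists chosen with earlier results known, were read beside the members. Their counts stand against the shares of all genes tested, which were 4.98% higher and 3.64% lower with palbociclib, 0.932% and 2.03% with ruxolitinib, and 12.9% and 10.2% with the combination. Of 13 further sterol and uptake genes, 0 passed with palbociclib and 0 with ruxolitinib in the authors' deposited DESeq2 table. At an unadjusted p under 0.05 there were 0 and 4, beside 3453 and 1969 of all 15448 genes tested. With the combination 1 rose (7.69%) and 2 fell (15.4%): Nceh1, a cholesterol ester hydrolase gene, rose by 0.75 ± 0.19 (SE, adjusted p = 0.00137), while Tmem97, a sterol-responsive gene of the endoplasmic reticulum, had -0.88 ± 0.24 (SE, adjusted p = 0.0032) and Lipa, the lysosomal acid lipase gene, -0.48 ± 0.18 (SE, adjusted p = 0.0365) in the authors' deposited DESeq2 table.

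Of the further fatty acid genes 1 of 19 tested rose and 1 fell with palbociclib (5.26% each), 1 of 19 fell with ruxolitinib (5.26%), and 3 of 20 rose (15%) and 1 fell (5%) with the combination. Elovl7, an elongase gene, rose with palbociclib by 0.87 ± 0.20 (SE, adjusted p = 0.000637) and with the combination by 0.67 ± 0.20 (SE, adjusted p = 0.00612) in the authors' deposited DESeq2 table. Acsl1, which activates long-chain fatty acids, fell with both single drugs, at -0.74 ± 0.16 (SE, adjusted p = 0.000388) and -0.58 ± 0.16 (SE, adjusted p = 0.0194) in the authors' deposited DESeq2 table. Mid1ip1, whose product activates acetyl-CoA carboxylase, fell with the combination, at -0.57 ± 0.16 (SE, adjusted p = 0.00431), and Hacd4, an elongation-cycle dehydratase gene, rose by 1.65 ± 0.48 (SE, adjusted p = 0.0058) in the authors' deposited DESeq2 table.

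Among 11 isoprenoid genes, which draw on the same mevalonate, 1 rose with palbociclib, Coq2 of ubiquinone synthesis (9.09% of the list), by 0.51 ± 0.17 (SE, adjusted p = 0.0355), and none passed with ruxolitinib, in the authors' deposited DESeq2 table. With the combination 1 rose (9.09%) and 2 fell (18.2%), of which Dhdds, a dolichol synthesis gene, had -0.39 ± 0.10 (SE, adjusted p = 0.00248) and Pggt1b, a geranylgeranyl transferase subunit gene, -0.39 ± 0.11 (SE, adjusted p = 0.00253) in the authors' deposited DESeq2 table. Of 11 LXR and efflux genes 0 passed with palbociclib and 3 had an unadjusted p under 0.05, beside 3453 of all 15448 genes tested. Abcg4, which is 9.09% of that list, fell with ruxolitinib at -3.54 ± 0.90 (SE, adjusted p = 0.00839) in the authors' deposited DESeq2 table. With the combination 1 gene in each direction passed in the authors' deposited DESeq2 table. Smpdl3a rose by 0.68 ± 0.22 (SE, adjusted p = 0.0153 by DESeq2). Pltp, the phospholipid transfer protein gene, had -4.27 ± 0.90 (SE, adjusted p = 9.38e-05 by DESeq2). Its level was low, with a base mean of 27.9 normalised reads over the authors' whole fit. Of the fatty acid oxidation genes 1 of 13 (7.69%) fell with palbociclib, Acaa2 at -0.49 ± 0.11 (SE, adjusted p = 0.00104 by DESeq2), and 0 of 13 passed with ruxolitinib. With the combination 4 of 14 rose (28.6%) and 1 fell (7.14%) in the authors' deposited DESeq2 table. Etfb had 1.21 ± 0.36 (SE, adjusted p = 0.00638 by DESeq2) and Hadha -0.42 ± 0.12 (SE, adjusted p = 0.00486 by DESeq2). Overlaps with other annotated genes on the same strand made up 58.25% of the Etfb exon bases, so its count is uncertain.

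**Figure D4:**
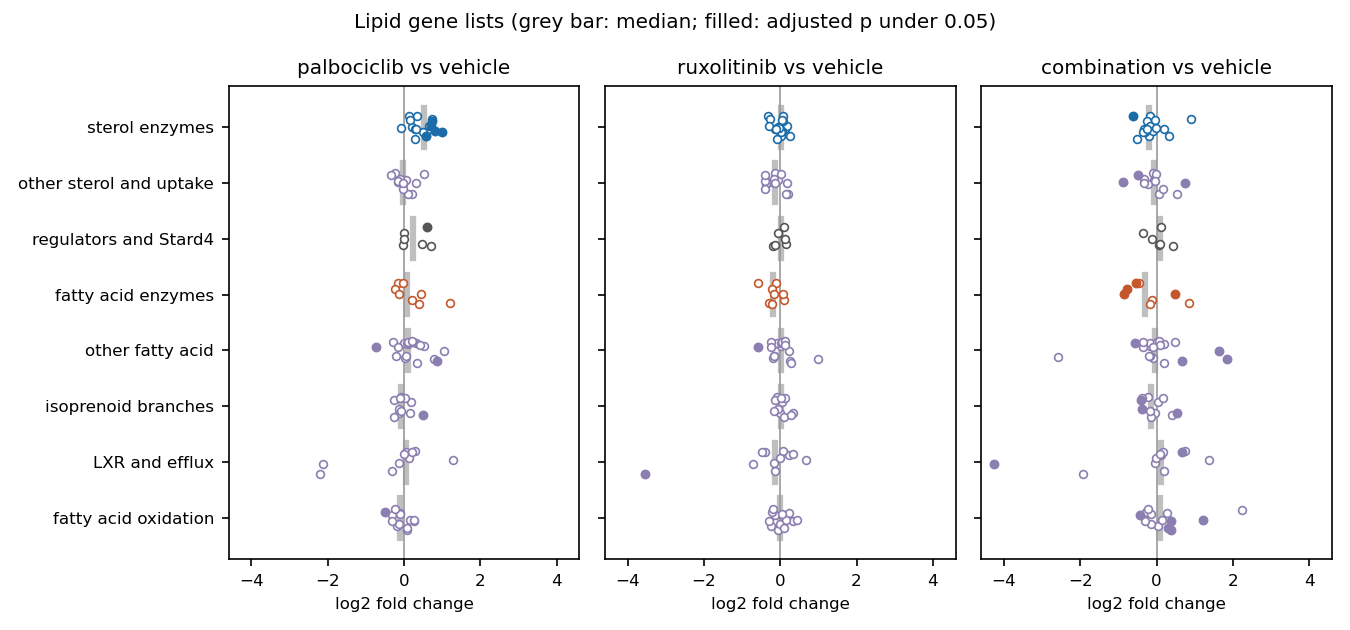
Log2 fold change against vehicle of every gene tested in the member lists and the further lipid lists, 1 point a gene, jittered vertically, with a grey bar at each list's median; filled points have an adjusted p under 0.05. The sterol enzymes have their median at 0.53 with palbociclib and -0.19 with the combination, and the fatty acid enzymes at 0.09 and -0.31.

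Some counts are uncertain, because reads could be split among near-identical or overlapping genes and the strand setting of the counting is not given in the sources used here. The share of 50-base stretches found in other annotated genes was 39.1% for Acat2, 30.4% for Acaca, 26.5% for Fdft1, 26.2% for Fdps, 25.3% for Idi1 and 11.6% for Hmgcs1. Scap and Tm7sf2 each had just under 10% shared, and the other 26 members were below 5%. Mvd, Acly, Fasn, Fads1 and Stard4 shared none.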

How the data were processed

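PolyA RNA was sequenced from 12 libraries in 4 groups. Reads were handled with fastp 0.20.0, HISAT2 2.0.1, SAMtools 1.10, featureCounts 2.0.0 and DESeq2 on GRCm38, per the submitters' processing notes; the DESeq2 version is not given in the sources used here. The authors deposited 3 tables of each drug arm against vehicle, holding the base mean (a signal, in normalised reads, per the file headers), the log2 fold change with its standard error, the Wald score, and the p-value with its adjusted p-value.

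Library size factors were recovered from genes with a single read; they place these 12 libraries in a fit of 24, of which the other 12 are not analysed here. The vehicle level and dispersion of each gene were solved from its 3 deposited standard errors (tolerance 1e-06), for 18566 of 19228 genes tested (96.6%), giving the group levels, variances and 95% intervals, which cover the modelled spread only. Differences between arms used a 2-sided normal test with Benjamini-Hochberg adjustment over all genes. Python 3.11.15, numpy 2.4.6, pandas 2.3.3 and scipy 1.17.1 were used. The level solution and tests were run on simulated data built from the same model. Such data check the calculation only and cannot show how well the recovered variances fit the real libraries. Gene positions came from GENCODE M21, which held 55227 of the 55487 IDs (99.5%). Full values are given for members that passed in a comparison with vehicle or between arms and for the 5 regulators, and up to 3 passing genes per further list; Scd2, Abca1 and the members described as not passing were added after their values were seen. Some genes of the further lists are not reported here. The members and lists were chosen with earlier results of these data known. The alternatives were the threshold, the set of genes adjusted over, a base mean minimum of 50, centring on the median of all genes, an assumed correlation of 0.5 between arms, and the modelled variances.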

Additional observations from a re-analysis of the deposited data

How the results depend on the processing

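With palbociclib 6 members rose; at a threshold of 0.01 there were 0, and with adjustment over every gene with a deposited p-value 1. With the combination 1 rose, which became 2 at a threshold of 0.1 and 0 at 0.01. Members that differed between the combination and palbociclib went from 0 to 7 with a correlation of 0.5 between the arms and to 7 with modelled group variances. Those between the combination and ruxolitinib went from 0 to 3 and 3, and those between the single drugs from 0 to 2 and 1. These alternatives have smaller errors by construction and are not separate checks, and the share of all genes called with the correlation of 0.5 was not computed. No direction reversed among the results under the alternatives run, and centring on the median of all genes changed no member's call. Leaving out each replicate was not run, since only group comparisons were used. No paired analysis was possible because the deposited columns are comparisons between groups and carry no replicate numbers, so a replicate block could not be fitted. At 18.2 to 44.7 M reads per library, the standard errors of the palbociclib log2 fold changes included 0.73 for Scd1 and 0.56 for Abca1.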
